A study of Rattus norvegicus with 6 samples.

Results

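The circadian clock genes Clock, Bmal1, Per1, Per2, Per3, Cry1, Cry2, Nr1d1 and Dbp were followed in vascular smooth muscle (VSM) cells cultured from young and old rats. Their rows were found by gene symbol, without use of measured values. Arntl and Bmal1 are names of the same gene, listed as Bmal1, and all 9 members had a row among the 14475 genes counted. RNA came from VSM cells of the soleus feed artery (SFA), which supplies the soleus muscle, of male Fischer 344 rats. The young group held 3 rats aged 4 months and the old group 3 rats aged 24 months, each giving 1 culture and 1 library of polyadenylated RNA. Cells of both groups had been grown in DMEM F-12 with fetal bovine serum, and the sources state no treatment of either group before the RNA was taken. The cells are therefore a model of the artery wall after growth in serum, away from blood flow and pressure. The sources used here give no passage number, no hour of harvest and no synchronizing step, so a different level of a rhythmic transcript and a different phase of its rhythm cannot be told apart.

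The molecular clock is a transcriptional feedback loop that runs in almost every cell type, VSM cells included. CLOCK and BMAL1 bind DNA as a dimer and activate the Per and Cry genes, whose proteins return to the nucleus and repress that dimer. The same dimer drives Nr1d1, which encodes the nuclear receptor REV-ERBα that represses Bmal1, and Dbp, an activator that passes the rhythm to output genes. In arteries the clock is known for daily variation in tone and blood pressure, and serum can reset it in cultured cells.

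The members are tied together through short DNA elements, which are shown here because the results are ordered by these roles. The 250 bases before the annotated start were read from RefSeq (assembly GRCr8), whereas the reads were counted on an earlier assembly. Promoters were found for 8 of the 9 members, in 10 windows, and Cry1 had no entry. In both strands of each window, 5 motifs were searched. They were the E-box CACGTG, which CLOCK and BMAL1 bind, the weaker E'-box CACGTT (read as AACGTG on the opposite strand), the D-box TTATGTAA (opposite strand TTACATAA), which DBP binds, the ROR element TAGGTCA (opposite strand TGACCTA), which REV-ERB and ROR receptors bind, and the cAMP response element TGACGTCA. The E-box and the cAMP response element read the same on both strands, and none of the motifs contains another. Of 33469 rat promoter windows of this length, the E-box was present in 5.59%, the E'-box in 4.07%, the D-box in 0.828%, the ROR element in 2.26% and the cAMP response element in 1.59%. At least 1 motif was found in 4 members. Each site is given 5′ to 3′ on the strand of the gene with the motif in capitals. A match describes these letters and is not evidence of binding.
Bmal1 ROR element, 16 bases before the start, chr1:176766302-176766327, plus strand: aggcagaaagTAGGTCAgggacggag
Per2 D-box, 192 bases before the start, chr9:99497168-99497195, minus strand: catgtgcgtcTTATGTAAagagagcgac
Per2 E'-box, 62 bases before the start, chr9:99497040-99497065, minus strand: cgcgcgcggtCACGTTttccactatg
Cry2 E'-box, 212 bases before the start, chr3:98860634-98860659, minus strand: acatggtgggAACGTGagggggcggg
Nr1d1 E-box, 191 bases before its second annotated start, chr10:84229630-84229655, minus strand: tcagctcccaCACGTGtctggggatc

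For Nr1d1 and Dbp, the members that CLOCK and BMAL1 drive outside the Per and Cry families, the whole window before the start is printed. That of Nr1d1 holds an E'-box, in capitals, 174 bases before its first annotated start. No motif of the 5 is spelled out in the window of Dbp, which says nothing of sites elsewhere in the gene.
Nr1d1 promoter, chr10:84231813-84232062, minus strand: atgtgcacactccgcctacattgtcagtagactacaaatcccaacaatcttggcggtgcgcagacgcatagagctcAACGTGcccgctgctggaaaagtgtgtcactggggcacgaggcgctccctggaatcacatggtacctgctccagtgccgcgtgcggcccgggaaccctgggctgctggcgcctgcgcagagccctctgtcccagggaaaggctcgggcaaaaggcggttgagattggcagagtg
Dbp promoter, chr1:105312006-105312255, plus strand: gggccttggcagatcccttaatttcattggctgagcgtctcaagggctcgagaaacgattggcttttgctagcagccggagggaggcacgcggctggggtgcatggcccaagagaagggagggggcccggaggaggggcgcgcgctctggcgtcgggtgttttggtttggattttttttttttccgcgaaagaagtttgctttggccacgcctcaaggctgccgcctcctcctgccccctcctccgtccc

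Counts on genes summed to between 44235674 and 59700887 per library, and each member had between 295 and 6374 counts in a library. Levels are given as CPM, counts scaled to a common library size of 1000000 after TMM normalization, and are compared between libraries for 1 gene at a time. Differences were tested with edgeR's quasi-likelihood test with young as the reference, and adjusted p-values were corrected by Benjamini-Hochberg over the 14475 genes. The p-values measure the spread between these cultures. The VSM markers Acta2, Myh11, Cnn1 and Tagln were present in each library. Summed over 10 VSM markers, levels were 11277 to 21203 CPM in young and 3472 to 5600 CPM in old libraries. The sum over 9 fibroblast markers was 748 to 1325 CPM in young and 1669 to 2702 CPM in old libraries. These are bulk samples, so a change in the share of a cell type and a change in RNA per cell cannot be told apart.

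In the activator arm, Clock was lower in old VSM cells and Bmal1 differed little. Clock (ENSRNOG00000002175), which encodes the acetyltransferase partner of the dimer, was at 108, 106 and 118 CPM in young replicates 1, 2 and 3 and at 103, 87.5 and 83.7 CPM in old replicates 1, 2 and 3. Each old library lay below each young library, although old replicate 1 was close to the young values. The means were 110 ± 6.51 CPM in young and 91.3 ± 10.02 CPM in old (SD, n = 3 each). The difference was -0.28 on the log2 scale (standard error 0.11, 95% confidence interval -0.54 to -0.01), with an adjusted p of 0.21 in edgeR, above the threshold of 0.05.

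Bmal1 (ENSRNOG00000014448), which encodes the DNA-binding partner of CLOCK, was at 39.4, 37.9 and 43.4 CPM in young and at 42.3, 42.1 and 41.7 CPM in old replicates 1, 2 and 3. The old values all lay inside the young range. Their coefficient of variation was 0.749%, the smallest of a member in either group. Counting error alone would give 2.14% at these counts if each count were a separate fragment, and more if both mates were counted. The log2 fold change of Bmal1 was 0.06 (standard error 0.09, edgeR adjusted p = 0.68). The 95% confidence interval ran from -0.14 to 0.27, so that differences of this size in either direction remain possible.

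**Figure D1:**
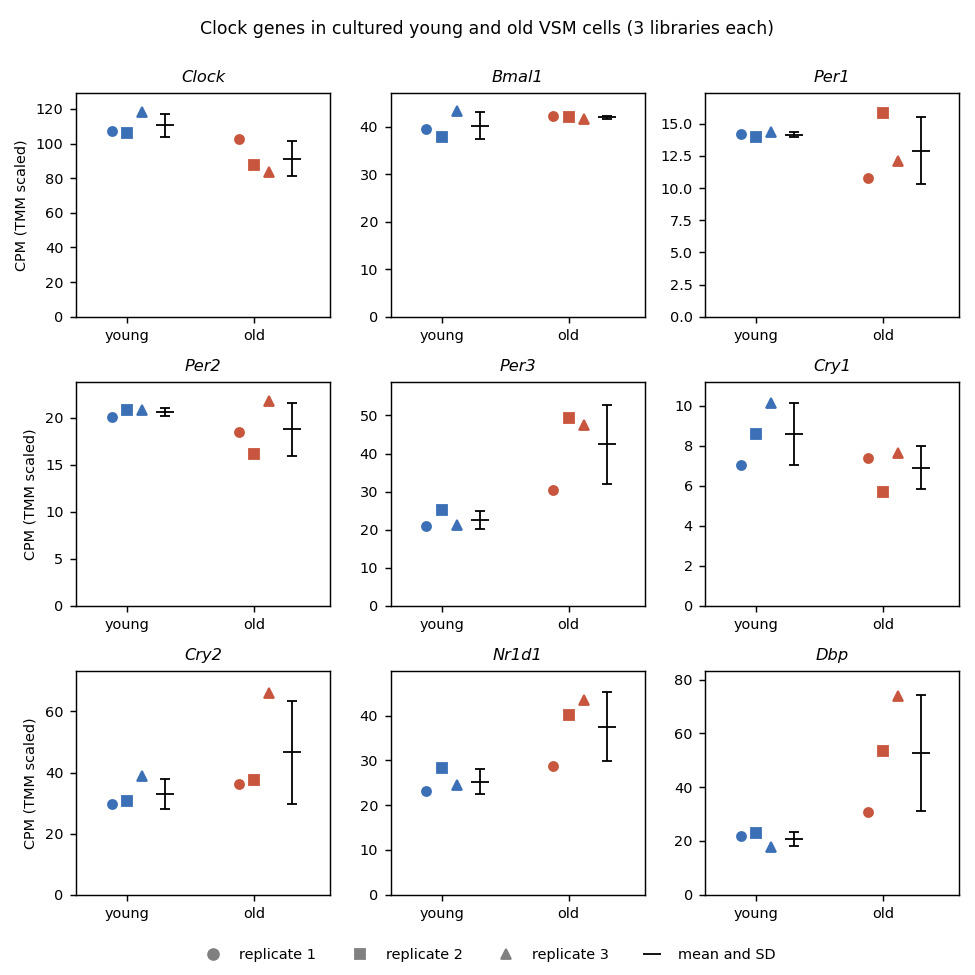
Level of each clock gene (y axis, TMM-scaled CPM, starting at 0) in 3 young and 3 old libraries, with marker shapes for the replicate number and the mean with SD beside the points. Old points lie higher than young points for Per3, Nr1d1 and Dbp and lower for Clock, and old replicate 1 is the old library nearest to young in all 4 of these panels.

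The Period genes, which encode the repressors that leave and re-enter the nucleus with the CRY proteins, did not move together. Per3 was 1.89-fold higher in old VSM cells, whereas Per1 and Per2 overlapped between the groups. Per3 (ENSRNOG00000018413) was at 21.1, 25.2 and 21.2 CPM in young and at 30.4, 49.3 and 47.6 CPM in old replicates 1, 2 and 3. Each old library lay above each young library, old replicate 1 by the least. The means were 22.5 ± 2.33 CPM and 42.4 ± 10.5 CPM (SD, n = 3 each). The log2 fold change of Per3 was 0.92 (standard error 0.20, 95% confidence interval 0.43 to 1.40), with an adjusted p of 0.0924 in edgeR, 0.00241 in DESeq2 and 0.104 in limma-voom.

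Per1 (ENSRNOG00000007387), the Period gene that responds fastest to serum and cAMP, was at 14.2, 14.0 and 14.4 CPM in young and at 10.8, 15.9 and 12.1 CPM in old replicates 1, 2 and 3. The young libraries were nearly equal, with a coefficient of variation of 1.44%, and old values fell on both sides of them. With each count taken as a separate fragment, counting error alone would give 3.70% in the young libraries, and more if both mates were counted. In edgeR the log2 fold change of Per1 was -0.13 (standard error 0.16, 95% confidence interval -0.52 to 0.26, edgeR adjusted p = 0.639). Per2 (ENSRNOG00000020254), the Period gene needed for a sustained rhythm, was at 20.1, 20.8 and 20.9 CPM in young and at 18.5, 16.2 and 21.8 CPM in old libraries. Old replicate 3 was above all young libraries and the other old libraries were below them. For Per2, the log2 fold change was -0.13 (standard error 0.13, 95% confidence interval -0.44 to 0.18, edgeR adjusted p = 0.562).

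The Cryptochrome genes encode the proteins that repress the CLOCK and BMAL1 dimer most directly, and both overlapped between the age groups. Cry1 (ENSRNOG00000006622) was at 7.04, 8.56 and 10.1 CPM in young and at 7.36, 5.68 and 7.65 CPM in old replicates 1, 2 and 3. Old replicates 1 and 3 lay inside the young range and old replicate 2 below it. For Cry1, the log2 fold change was -0.32 (standard error 0.20, 95% confidence interval -0.79 to 0.16, edgeR adjusted p = 0.372). Cry2 (ENSRNOG00000007478) was at 29.7, 30.8 and 38.7 CPM in young and at 36.4, 37.5 and 66.0 CPM in old libraries. Old replicate 3 stood above the other 5 libraries, which shared the same range. The log2 fold change of Cry2 was 0.50 (standard error 0.26, 95% confidence interval -0.12 to 1.11, edgeR adjusted p = 0.294), and it was 0.16 without old replicate 3.

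Nr1d1 and Dbp, the direct targets of the activator dimer outside the repressor families, were both higher in old VSM cells. Nr1d1 (ENSRNOG00000009329), which encodes the repressor of Bmal1, was at 23.1, 28.3 and 24.5 CPM in young and at 28.8, 40.1 and 43.5 CPM in old replicates 1, 2 and 3. All 3 old values exceeded the young ones, but old replicate 1 exceeded young replicate 2 by a small margin, and this order was lost when counts were scaled by library size only (28.5 CPM in both). The means were 25.3 ± 2.71 CPM and 37.5 ± 7.70 CPM (SD, n = 3 each), a 1.48-fold difference. The log2 fold change of Nr1d1 was 0.57 (standard error 0.17, 95% confidence interval 0.15 to 0.99), with an adjusted p of 0.146 in edgeR and 0.0557 in DESeq2.

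Dbp (ENSRNOG00000021027), a PAR bZIP transcription factor that activates genes through D-boxes, showed the largest difference of the 9 members. It was at 21.9, 22.9 and 17.9 CPM in young and at 30.8, 53.3 and 74.0 CPM in old replicates 1, 2 and 3. Dbp was above the young range in all 3 old cultures, which also differed widely from each other. The means were 20.9 ± 2.65 CPM and 52.7 ± 21.6 CPM (SD, n = 3 each), a 2.53-fold difference. The log2 fold change of Dbp was 1.34 (standard error 0.31, 95% confidence interval 0.59 to 2.09), with an adjusted p of 0.0982 in edgeR, 0.00154 in DESeq2 and 0.12 in limma-voom.

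Counted together, 0 of the 9 members passed an adjusted p under 0.05 in edgeR, where 0.00691% of all genes passed, with or without a further threshold of 1 on the size of the log2 fold change. At an unadjusted p under 0.05 edgeR gave 4 members against 22.6% of all genes. They were Per3, Nr1d1 and Dbp, higher in old as were 11.2% of all genes, and Clock, lower in old as were 11.5% of all genes. The same 4 members had groups that did not overlap, which held for 29.2% of all genes, 14.5% higher and 14.7% lower in old. For each of them the two-sided exact permutation test of 3 against 3 libraries gave p = 0.1, the smallest p this design allows. DESeq2 called 2 members, Per3 and Dbp, at an adjusted p under 0.05, and 12.5% of the 14183 genes to which it gave an adjusted p. When the log2 fold change also had to reach 1 in size it called Dbp, and 5.68% of those genes. The median log2 fold change was 0.06 over the members and 0.02 over all genes.

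**Figure D2:**
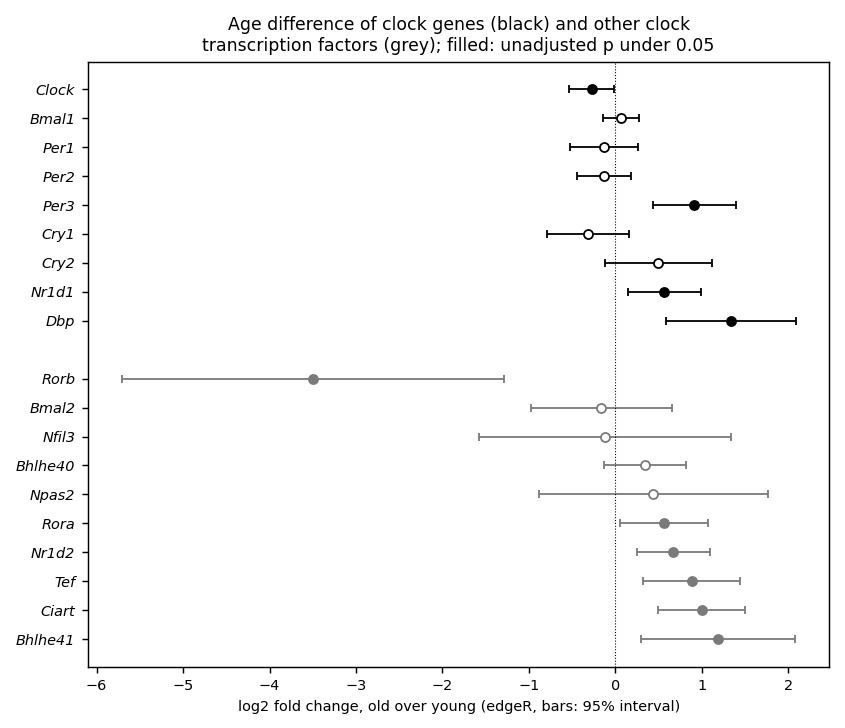
Log2 fold change, old over young, from edgeR with its 95% confidence interval (x axis) for the 9 clock genes in black and 10 other clock transcription factors in grey, with filled points for an unadjusted p under 0.05. Dbp (1.34) and Per3 (0.92) lie farthest to the right among the clock genes, and Bmal1 (0.06) lies near 0.

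Members differed in spread as well as in level. The coefficient of variation over 3 libraries ran from 1.44% (Per1) to 18.0% (Cry1) in young, with a median of 10.4% over members and 11.8% over all genes. In old it ran from 0.749% (Bmal1) to 41.0% (Dbp), with a median of 20.3% over members and 16.8% over all genes. Old replicate 1 had the lowest level of Per3, Nr1d1 and Dbp and the highest level of Clock among the old libraries. Without old replicate 1, edgeR called 3 members, at log2 fold changes of 1.11 for Per3 (adjusted p = 0.0262), 0.73 for Nr1d1 (adjusted p = 0.033) and 1.61 for Dbp (adjusted p = 0.0262). That fit called 9.53% of all genes, 1380 in number, against 1 gene with all 6 libraries.

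**Figure D3:**
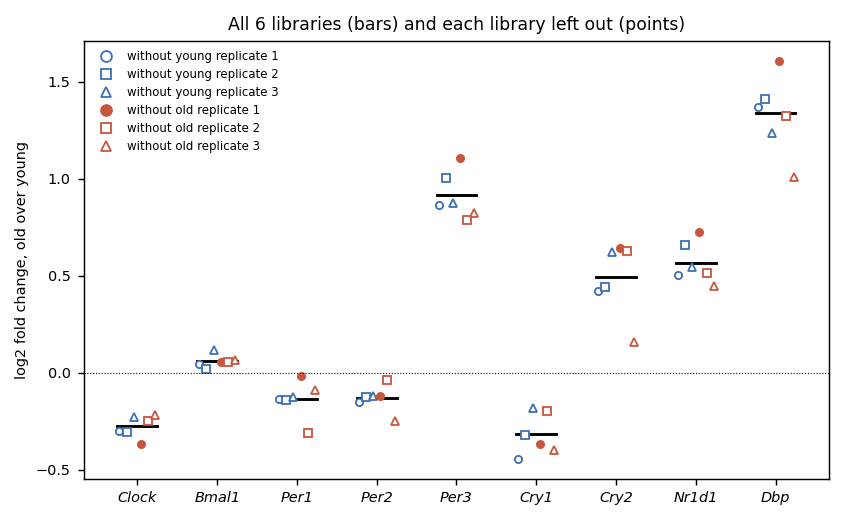
Log2 fold change, old over young, of each clock gene in edgeR with all 6 libraries (black bars) and with each library left out (points). Dbp moved between 1.01 without old replicate 3 and 1.61 without old replicate 1, Cry2 dropped to 0.16 without old replicate 3, and no member changed sign.

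Ratios between members within a library do not depend on how libraries were scaled, and Bmal1 was taken as the denominator after its values had been seen, because its level differed least. They compare the same pair of genes across libraries. Counts of Dbp per count of Bmal1 were 0.554, 0.604 and 0.412 in young and 0.729, 1.27 and 1.78 in old replicates 1, 2 and 3. Counts of Per3 per count of Bmal1 were 0.534, 0.665 and 0.489 in young and 0.718, 1.17 and 1.14 in old libraries. Both ratios were higher in each old library than in each young one. The ratio of Clock to Bmal1, the partners of the activator dimer, was 2.73, 2.80 and 2.72 in young and 2.43, 2.08 and 2.01 in old libraries, lower in each old library. The ratio of Nr1d1 to Bmal1 was 0.585, 0.747 and 0.564 in young and 0.681, 0.952 and 1.04 in old libraries, where old replicate 1 fell inside the young range. Ratios of Per1, Per2, Cry1 and Cry2 to Bmal1 overlapped between the groups.

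Paralogs and partners of the members make up the rest of the core transcription loop, and 10 of the 13 names listed had a row. Of these 10, edgeR gave 5 higher and 1 lower in old cells at an unadjusted p under 0.05, and 0 passed the adjusted threshold. Over all genes, 11.2% were higher and 11.5% lower at that unadjusted threshold. DESeq2 called 5 of the 10 at an adjusted p under 0.05, against 12.5% of the genes to which it gave an adjusted p. They were Nr1d2, Tef, Bhlhe41, Ciart and Rorb. Nr1d2, the paralog of Nr1d1 that encodes REV-ERBβ, was at 35.8, 39.0 and 36.9 CPM in young and at 45.3, 59.2 and 73.1 CPM in old replicates 1, 2 and 3. Tef, a PAR bZIP paralog of Dbp, was at 33.6, 38.2 and 34.9 CPM in young and at 47.9, 58.8 and 89.9 CPM in old libraries. Both followed the order of Dbp among the old libraries, lowest in replicate 1 and highest in replicate 3, and their log2 fold changes were 0.67 (standard error 0.18) and 0.88 (standard error 0.23), each with an adjusted p of 0.116 in edgeR.

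Ciart, which encodes a repressor of the activator dimer, was at 2.17, 2.78 and 2.24 CPM in young and at 5.41, 4.08 and 4.89 CPM in old libraries, or 1.00 on the log2 scale (standard error 0.21, edgeR adjusted p = 0.0823). In contrast to Dbp, its highest old value was in replicate 1. Bhlhe41, which encodes the E-box repressor DEC2, was at 10.2, 10.1 and 12.2 CPM in young and at 16.7, 16.8 and 40.5 CPM in old libraries, or 1.19 on the log2 scale (standard error 0.37, edgeR adjusted p = 0.151) that was 0.63 without old replicate 3. Rora, an activator of Bmal1, was at 5.63, 4.62 and 3.5 CPM in young and at 7.10, 6.96 and 6.29 CPM in old libraries, or 0.57 on the log2 scale (standard error 0.21, edgeR adjusted p = 0.193). Rora and Nr1d1 encode proteins that act on Bmal1 in opposite directions. Both had higher levels in old, neither with an edgeR adjusted p under 0.05. The part of these genes in the level of Bmal1 was not tested.

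Rorb, the paralog of Rora, ran the other way at low levels, with 0.864, 3.72 and 6.41 CPM in young and 0.161, 0.654 and 0.149 CPM in old libraries. Old replicates 1 and 3 each held 8 counts of Rorb, so its log2 fold change of -3.50 (standard error 0.92, edgeR adjusted p = 0.116) rests on few reads. Of the rest, Bhlhe40, the DEC1 gene, had a log2 fold change of 0.34 (edgeR adjusted p = 0.342), and its groups overlapped. The CLOCK paralog Npas2 had 0.44 (edgeR adjusted p = 0.647), the BMAL1 paralog Bmal2 had -0.16 (edgeR adjusted p = 0.792) and Nfil3, whose protein represses through the D-boxes that DBP activates, had -0.12 (edgeR adjusted p = 0.917). Nfil3, Bmal2 and Npas2 varied more between replicates of an age group than between ages. Nfil3 was at 40.7, 31.2 and 15.2 CPM in young and at 36.2, 35.8 and 8.04 CPM in old replicates 1, 2 and 3, lowest in the library numbered 3 of each group.

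**Figure D4:**
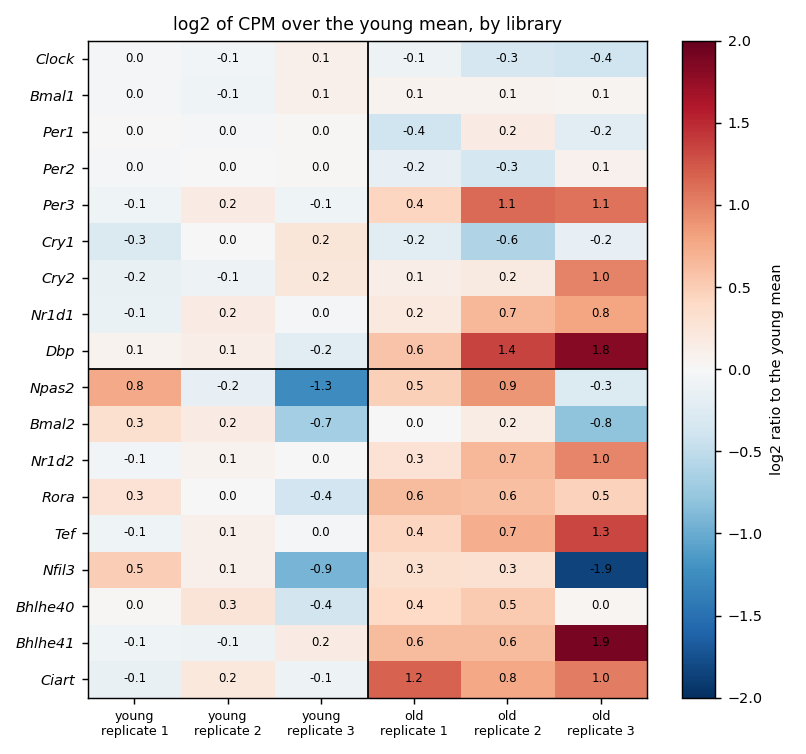
Log2 ratio of the CPM of each library to the mean of the 3 young libraries (color scale from -2 to 2, value printed in each cell) for the 9 clock genes above the line and 9 other clock transcription factors below it. Dbp, Nr1d2, Tef and Bhlhe41 are highest in old replicate 3, whereas Nfil3 is lowest there, and Rorb is left out because of its low counts.

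Upstream of their starts, 5 of these 10 genes held a motif of the 5 searched. Tef, Bhlhe40 and Bhlhe41 each held an E-box and Bmal2 an E'-box. Ciart, the transcription factor with the lowest adjusted p of this group, held 3 E-boxes within 250 bases, given here on the minus strand of chromosome 2. The last pair lie so close that the bases printed around them overlap.
Ciart E-box, 93 bases before the start, chr2:186112324-186112349: tatctagagtCACGTGttgccggcaa
Ciart E-box, 35 bases before the start, chr2:186112266-186112291: cagggggaggCACGTGcagagccgca
Ciart E-box, 21 bases before the start, chr2:186112252-186112277: tgcagagccgCACGTGtctgggaggg

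Kinases, phosphatases and ubiquitin ligase parts set the stability of PER and CRY proteins. A list of 23 clock protein regulators held such genes and also others, among them Timeless, Nono, Sfpq and Usp7, and all had a row. At an unadjusted p under 0.05 edgeR gave 5 of the 23, 2 higher and 3 lower in old cells, against 22.6% of all genes. After adjustment, 0 passed the threshold. Ppp1cc, a phosphatase subunit, was higher by 0.23 on the log2 scale (standard error 0.08, edgeR adjusted p = 0.179). Prkaa2, an AMPK catalytic subunit, had -2.04 (standard error 0.41, edgeR adjusted p = 0.0768) and the kinase Gsk3a had -0.19 (standard error 0.07, edgeR adjusted p = 0.201). Timeless, which also serves DNA replication, was at 14.3, 12.6 and 14.2 CPM in young and at 8.26, 4.66 and 3.62 CPM in old libraries, or -1.31 on the log2 scale (standard error 0.31, edgeR adjusted p = 0.1). Among 13 coregulators of the loop, 1 gene passed the unadjusted threshold, against 22.6% of all genes. It was the histone methyltransferase Ezh2, at a log2 fold change of -0.84 (standard error 0.28, edgeR adjusted p = 0.164).

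Among 18 genes described as clock outputs in other tissues, edgeR gave 3 higher and 3 lower in old cells at an unadjusted p under 0.05. Those directions held 11.2% and 11.5% of all genes. Of the 18 genes, 0 passed the adjusted threshold. Agtr1a, the angiotensin II receptor gene, was at 4.30, 3.44 and 1.67 CPM in young and at 11.0, 43.3 and 26.5 CPM in old libraries, or 3.10 on the log2 scale (standard error 0.58, edgeR adjusted p = 0.0697). Nampt, the rate-limiting enzyme of NAD salvage, had 0.97 (standard error 0.20, edgeR adjusted p = 0.0762), and the cell cycle inhibitor Cdkn1a had 0.48 (standard error 0.18, edgeR adjusted p = 0.198). On the lower side, the deubiquitinase Usp2 had -0.41 (edgeR adjusted p = 0.182) and the cell cycle kinase Wee1 had -0.53 (edgeR adjusted p = 0.202). Output genes were thus found on both sides, and their relation to Dbp was not tested. Over the 4 lists of other clock genes, 18 of 64 passed the unadjusted threshold, 10 higher and 8 lower, against 22.6% of all genes.

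Per1, Per2 and Dbp can also respond to serum, cAMP or glucocorticoids, so genes of those responses were examined beside them. Among 21 immediate early and cAMP-responsive genes, 3 were higher and 2 lower at an unadjusted edgeR p under 0.05. The shares of all genes at that threshold were 11.2% higher and 11.5% lower. Klf4 had a log2 fold change of 1.23 (edgeR adjusted p = 0.0545), Fosl2 had 0.74 (edgeR adjusted p = 0.135) and Jund had 0.52 (edgeR adjusted p = 0.111), while Srf had -0.98 (edgeR adjusted p = 0.111) and Ier3 had -0.88 (edgeR adjusted p = 0.218). Of 10 glucocorticoid-responsive genes, 1 passed the unadjusted threshold, against 22.6% of all genes. It was the receptor gene Nr3c1, with 0.54 (edgeR adjusted p = 0.12). The part of these genes in the levels of the members was not tested.

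Across the old libraries, the summed levels of proliferation genes and of VSM markers set replicate 1 apart from replicates 2 and 3, as did Clock, Per3, Nr1d1 and Dbp. Bmal1, Per1, Per2 and Cry1 did not show this order. Cry2 was also nearest to the young mean in old replicate 1, at 36.4 CPM. Old replicate 2 was close to it at 37.5 CPM, and replicate 3 stood apart at 66.0 CPM. The summed level of 14 proliferation genes was 939, 603 and 907 CPM in young and 660, 229 and 192 CPM in old replicates 1, 2 and 3. Old replicate 1 thus lay inside the young range for proliferation genes and nearest to the young libraries for Clock, Per3, Nr1d1 and Dbp. All 14 genes had a negative log2 fold change, and 5 of them, Mcm2, Pcna, Tyms, Mcm5 and Cdk1, passed an unadjusted edgeR p under 0.05. For this and the marker counts below, 11.2% of all genes were higher and 11.5% lower in old at that threshold. Of the 10 VSM markers 9 were lower and 0 higher in old at that threshold, Cnn1 with a log2 fold change of -2.56 and Acta2 with -2.27. The summed VSM markers were at 5600, 3472 and 3549 CPM in old replicates 1, 2 and 3, again nearest to young in replicate 1. Acta2 and Tagln made up most of that sum. Acta2, Tagln, Cnn1, Lmod1, Smtn and Mylk were highest in replicate 1 among the old libraries, whereas Myh11, Myocd, Synpo2 and Des were not. Myh11 was lowest there, at 77.9 CPM against 229 and 95.4 CPM in old replicates 2 and 3. Of the 9 fibroblast markers, whose sum was 1669, 2702 and 2623 CPM in these libraries, 4 were higher, Col14a1 with 2.43, Dcn with 4.58, Pdgfra with 0.99 and Pi16 with 0.87. Summed over the 6 endothelial markers with a row in the table, levels were 29.2 to 43.0 CPM in young and 31.2 to 44.1 CPM in old libraries, and 0 of them passed that threshold. Neither did any of 3 macrophage markers, while 2 of 3 skeletal muscle markers (Acta1, lower, and Tnnt3, higher) did. The part of growth state and of cell type in the levels of the clock genes was not tested.

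Genes whose log2 CPM followed a member most closely over the 6 libraries are given as a description, since both age groups enter the correlation and all values of a library share its scaling. Among 11421 genes searched, Dbp was followed by Maf1 (r = 0.999), a repressor of RNA polymerase III, and then by Tbc1d22a (r = 0.997) and the DNA polymerase gene Rev1 (r = 0.993). Nr1d1 was followed by Scamp1 (r = 0.997), Zbtb14 (r = 0.996) and a row named Rps18 (r = 0.996). That row (ENSRNOG00000033152) was at low levels, from 2.35 CPM in young replicate 1 to 3.51 CPM in old replicate 3. Bmal1 was followed by Asb7 (r = 0.976), Bod1l1 (r = 0.963) and the chromatin factor gene Ctcf (r = 0.963). Between members, Dbp had r = 0.967 with Per3, 0.965 with Nr1d1 and -0.987 with Clock, but 0.243 with Bmal1. Over these libraries Per3 and Nr1d1 thus followed Dbp, Clock ran opposite to it, and Bmal1 followed neither. By correlation with Dbp, Per3 ranked 164 and Nr1d1 192 among the 11421 genes, so many other genes followed Dbp more closely.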

How the data were processed

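Polyadenylated RNA of 6 VSM cell cultures was sequenced as stranded libraries. The authors deposited raw gene counts, whole numbers without normalization, and no column was left unused. Per the submitters' processing notes and the Methods, trimming used cutadapt 3.5 under Trim Galore 0.6.7 (FastQC 0.11.9, MultiQC 1.27.1), alignment to Rnor 6.0 used STAR 2.7.10b and counting used featureCounts (Subread 2.0.8). Those notes also name DESeq2 1.46.0. For strand, multi-mapped reads and mates, the counting options were not stated in the sources read. Identifiers were Ensembl's, while the Methods name RefSeq, and 1518 genes had no symbol. Each gene kept reached 10 counts in 3 or more libraries. Between 68.7% and 71.1% of counts from 1 to 19 were even, which counting both mates would leave, so halved counts were also tested. Summed counts of each library also exceeded the depth in reads that the Methods state. Counts given here may therefore be of mates rather than of fragments.

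Groups came from the sample titles. The main test was that of edgeR 4.0.16 in R 4.3.3 (TMM, quasi-likelihood F test, no covariates, Benjamini-Hochberg adjustment), with standard errors derived as the log2 fold change over the root of F. DESeq2 1.42.0 (292 genes had no adjusted p), limma-voom (limma 3.58.1), other scalings and filters and each library left out in turn were alternatives. The steps were tested on simulated data. The members and gene lists were chosen with earlier results of these data known. Named were all members, each clock transcription factor in the table, at most 6 genes of each other list by smallest unadjusted p under 0.05 in edgeR, and the 3 genes most correlated with Bmal1, Nr1d1 and Dbp among genes with a mean of at least 1 CPM. Promoters were the 250 bases before RefSeq starts in GRCr8. Some genes that this rule names are not reported here.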

Additional observations from a re-analysis of the deposited data

How the results depend on the processing

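Over 16 alternatives for each of the 9 members, 144 values in all, 134 kept the direction and the side of the adjusted threshold, 10 kept the direction and passed it, and 0 changed sign. The number of members called in edgeR was 0. It was 2 with DESeq2, 2 with edgeR's likelihood ratio test and 0 to 3 with a library left out, 3 of them without old replicate 1. With a log2 fold change of 1 or more in size, it was 0 in edgeR, 1 with DESeq2, 1 with the likelihood ratio test and 0 to 2 with a library left out. Members at an unadjusted p under 0.05 numbered 2 to 4 with a library left out, 2 of them without young replicate 1 or without old replicate 2, against 4 with all libraries. Of all 14475 genes, 2412 passed that threshold without young replicate 1, 2336 without old replicate 2 and 3277 with all libraries. For the other clock genes the range was 10 to 17 against 18, with 10 without young replicate 2 and 11 without young replicate 3. In those fits 2135 and 2355 of all genes passed. Members with groups that did not overlap numbered 4 to 6 with a library left out and 3 when scaled by library size only. Groups with fewer libraries fail to overlap more easily, and the share of all genes was not obtained for these counts. The median log2 fold change of the members stayed between 0.02 and 0.12. Among all genes, 1 was called in edgeR, 87 with a filter of at least 1 CPM in 3 libraries, 1093 with the likelihood ratio test, 1767 with DESeq2 and 0 with limma-voom, where 3347 had an unadjusted p under 0.05. The causes of these differences were not tested.

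Replicate numbers share no stated animal, batch or day between ages. Deviations from the group means correlated at 0.06, 0.31 and 0.29 for numbers 1, 2 and 3, not all above 0.1, so the numbers were not taken to pair the cultures, and not every library correlated best with its own number. With the replicate block, edgeR called 0 members, and 4 members and 17 other clock genes had an unadjusted p under 0.05. Of all 14475 genes, 3254 did. The replicate block with DESeq2, chosen after seeing the data, called 3 members, 1 of them with a log2 fold change of 1 or more in size. It called 1819 of the 14475 genes, and how many of those reached that size was not counted. With halved counts, 0 members were called and 4 had an unadjusted p under 0.05, as with the counts as deposited. Over all genes, 3304 had an unadjusted p under 0.05 with halved counts. Each group had 3 cultures, and the hour of harvest was not stated.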
